A study of Mus musculus with 4 samples.

Results

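The pyruvate dehydrogenase complex is the mitochondrial enzyme assembly that turns pyruvate, the end product of glycolysis, into acetyl-CoA. It is built from the pyruvate dehydrogenase α and β subunits (Pdha1, Pdhb), the acetyl-transferring subunit Dlat, the lipoamide dehydrogenase Dld and the binding protein Pdhx. The kinases (Pdk1, Pdk2, Pdk3, Pdk4) switch the complex off by phosphorylating the α subunit, and phosphatases such as Pdp1 switch it back on. In skeletal muscle Pdk2 and Pdk4 are the main kinases, and Pdk4 is known as a gene that responds to fasting, to fatty acids and to the nuclear receptor PPARα.

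These 10 genes were followed in gastrocnemius, the large calf muscle, of mice whose transgene overexpresses PPARα in muscle only (MCK-PPARa) and of their non-transgenic littermates (NTG). MCK is the promoter of muscle creatine kinase, a gene of differentiated striated muscle. There were 2 arrays per group, 4 in all, from what the series calls 2 mice per genotype, and nothing ties an array to an animal, so the p-values cover the spread of these samples alone, which may be technical. The labels state no strain, age, sex or treatment. All probe sets annotated with the symbol of one of the 10 genes were taken, which gave 13 probe sets for 8 genes out of 22690 probe sets in the deposited table. The kinases had 5 probe sets for 4 genes and the subunits 8 probe sets for 4 genes. Pdp1 and Pdhx had 0 probe sets with their symbol, so the phosphatase side of the comparison was not analysed here.

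Values are MAS5 signals, 1 number per probe set and array, on a linear scale. A change is the mean log2(signal + 64.2) of MCK-PPARa less that of NTG, given with its standard error (SE, n = 2 per group) from limma. The test ran over 8400 genes, each read by its brightest probe set, at a Benjamini-Hochberg adjusted p under 0.05. In it 5 genes passed, 4 higher and 1 lower in MCK-PPARa muscle. The 2% trimmed mean was between 1500.56 and 1500.68 on each array. The arrays also separate by replicate number: the 18S ribosomal RNA control (5′ probe set) was at 2201.5 (NTG) and 2313.1 (MCK-PPARa) for replicate 1, and at 28.9 and 44.7 for replicate 2. The ratio of 3′ to 5′ control signal lay between 0.72 and 0.96 for Gapdh and between 0.79 and 0.88 for β-actin. Changes between the arrays of one replicate number are therefore given beside the pooled ones, as the change for replicate 1 or 2. The 9 skeletal muscle markers, such as Ckm, Acta1 and Myh4, were all tested and summed to between 1073886 and 1362178 per array. None of them passed in either direction, but so few genes passed at all that this cannot show equal muscle content. Of the 9 markers 7 had a change above 0, against 55.5% of all genes, and 2 were higher without overlap, against 20.3%.

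The genes shown here are Pdk4, whose signal differs most between the groups, Pdk2, the other main muscle kinase, and Dlat, the subunit with the largest difference in the other direction. The stretches just before their transcription starts are given, and no link between these stretches and the changes was tested. Each is the 250 bases before the RefSeq start in GRCm38.p6, 5′ to 3′ on the gene's minus strand, at chr6:5496279-5496528 for Pdk4, chr11:95041372-95041621 for Pdk2 and chr9:50659781-50660030 for Dlat. Capitals mark matches, on either strand, to CCAAT or GGGCGG.
Pdk4: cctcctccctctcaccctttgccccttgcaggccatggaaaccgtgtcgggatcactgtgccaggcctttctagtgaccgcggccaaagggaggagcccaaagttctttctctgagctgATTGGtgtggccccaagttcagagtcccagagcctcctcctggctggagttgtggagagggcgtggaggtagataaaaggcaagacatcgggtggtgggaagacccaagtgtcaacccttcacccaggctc
Pdk2: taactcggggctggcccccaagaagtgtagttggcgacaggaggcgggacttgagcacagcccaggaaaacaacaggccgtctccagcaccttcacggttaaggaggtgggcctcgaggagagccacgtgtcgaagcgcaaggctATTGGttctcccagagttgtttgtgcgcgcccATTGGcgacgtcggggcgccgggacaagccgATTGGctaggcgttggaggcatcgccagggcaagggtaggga
Dlat: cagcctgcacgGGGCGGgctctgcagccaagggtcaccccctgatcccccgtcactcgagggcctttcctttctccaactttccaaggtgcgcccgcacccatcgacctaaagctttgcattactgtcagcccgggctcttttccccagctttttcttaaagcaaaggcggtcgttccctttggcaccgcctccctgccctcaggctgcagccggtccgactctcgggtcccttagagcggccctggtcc

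The window of Pdk4 held 1 CCAAT match and that of Pdk2 held 3, while that of Dlat held 1 GGGCGG match. CCAAT, read by the factor NF-Y, was found in 33.85% of all 32851 promoter windows of this length, and in 5 of the 9 windows available for the 10 genes. GGGCGG, read by Sp1-type factors, was found in 32.7% of all windows and also in 5 of the 9. AGGTCA, the core that many nuclear receptors read, found in 14.02% of all windows, was in none of the 9, and neither was AGGTCANAGGTCA, the repeat that PPAR and RXR dimers recognise, which 0.0335% of all windows held. GTAAACA, the forkhead motif (3.17% of windows), and TATAAA (12.4%) were likewise in none. A missing match says only that these letters are not in these windows.

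The targeted receptor was checked first. Ppara read 633 on NTG replicate 1 and 2674 on NTG replicate 2, against 7969 on MCK-PPARa replicate 1 and 15226 on MCK-PPARa replicate 2. Both MCK-PPARa arrays lay above both NTG arrays, with a log2 change of 3.003 ± 0.617 (SE, limma adjusted p = 0.21). The labels do not say whether the transgene carries the stretch that this probe set reads.

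Pdk4 was the member with the largest difference between the groups. Its only probe set, 1417273_at, read 5615 on NTG replicate 1 and 16725 on NTG replicate 2, against 48220 on MCK-PPARa replicate 1 and 54528 on MCK-PPARa replicate 2. Both MCK-PPARa arrays were above both NTG arrays, and the NTG arrays lay much further apart from each other than the MCK-PPARa arrays did. The group means were 11170 ± 7856 (SD, n = 2) in NTG and 51374 ± 4461 (SD, n = 2) in MCK-PPARa muscle. The log2 change was 2.39 ± 0.49 (SE), a 5.26-fold difference, with a 95% interval from 1.26 to 3.53 on the log2 scale. Pdk4 did not pass over all genes tested (limma adjusted p = 0.20, unadjusted p = 0.0013). Of the 8400 genes, 10 had a larger positive change and 51 a smaller p.

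The size of the Pdk4 difference depended on the NTG array it was read against. It was 3.09 on the log2 scale for replicate 1 and 1.70 for replicate 2. Leaving out NTG replicate 2 gave 3.18, and leaving out NTG replicate 1 gave 1.61. With MCK-PPARa replicate 1 dropped the change was 2.48, and with the other array of that group dropped it was 2.31. These fits leave 1 array in a group, which is assumed to vary like the rest. Only the sizes of their changes are therefore given. With all 4 arrays and the replicate number as a block, the change was 2.39 and passed (limma adjusted p = 0.0043). In that fit 196 of the 8400 genes passed, against 5 without the block. The labels do not say what the replicate number marks.

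**Figure D1:**
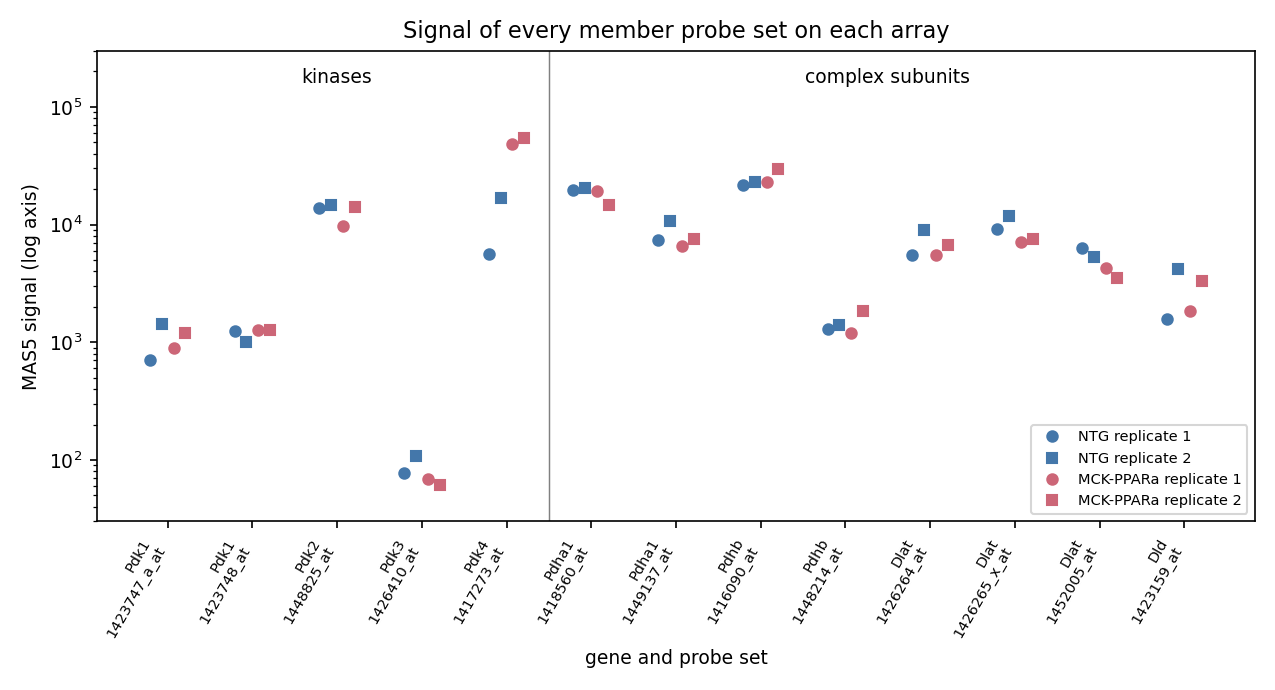
MAS5 signal (log axis) of each of the 13 member probe sets on each of the 4 arrays, NTG in blue and MCK-PPARa in red, circles for replicate 1 and squares for replicate 2. Pdk4 lies at 5615 and 16725 on the blue points and at 48220 and 54528 on the red ones, while Pdk3 stays between 61.1 and 108 on each array.

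The other kinases had much smaller differences. Pdk2, 1448825_at, read 13891 and 14787 on the NTG arrays and 9789 and 14220 on the MCK-PPARa arrays. MCK-PPARa replicate 1 lay below both NTG arrays and MCK-PPARa replicate 2 between them, so the groups overlapped. Its log2 change was -0.28 ± 0.31 (SE, limma adjusted p = 0.97), -0.50 for replicate 1 and -0.06 for replicate 2. The 95% interval ran from -1.0 to 0.44 on the log2 scale.

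Pdk1, the kinase best known as a target of hypoxia factors, had a pair of probe sets. The brighter one, 1423748_at, read 1248 and 1012 on the NTG arrays and 1263 and 1281 on the MCK-PPARa arrays. The groups did not overlap, but NTG replicate 1 and MCK-PPARa replicate 1 differed by only 0.02 on the log2 scale. The log2 change was 0.17 ± 0.32 (SE, limma adjusted p = 0.98), with a 95% interval from -0.57 to 0.91. The other probe set, 1423747_a_at, read 712 and 1429 on the NTG arrays and 900 and 1197 on the MCK-PPARa arrays. There the groups overlapped, and in both groups the replicate 2 array was the higher one. Its log2 change was 0.03 ± 0.44 (SE) in the limma fit over all probe sets.

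Pdk3 was dim on every array. Its probe set 1426410_at read 77.4 and 108 on the NTG arrays and 69.0 and 61.1 on the MCK-PPARa arrays. It did not pass the filter on low levels, so it was tested only in the limma fit over all 22626 probe sets other than controls, with a log2 change of -0.27 ± 0.44 (SE, adjusted p = 0.98). These signals are close to the offset of 64.2, so the size of this value depends on the offset.

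The α subunit Pdha1, which carries the sites that the kinases phosphorylate, was slightly lower in value in MCK-PPARa muscle. Probe set 1418560_at read 19790 and 20517 on the NTG arrays and 19173 and 14586 on the MCK-PPARa arrays. The groups did not overlap, and most of the difference lay in MCK-PPARa replicate 2. The log2 change was -0.27 ± 0.30 (SE, limma adjusted p = 0.97), -0.05 for replicate 1 and -0.49 for replicate 2. The other Pdha1 probe set, 1449137_at, read 7335 and 10695 on the NTG arrays and 6579 and 7561 on the MCK-PPARa arrays. These overlapped, with a log2 change of -0.33 ± 0.31 (SE), so both probe sets gave a change of the same sign and similar size.

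Pdhb, the β subunit that pairs with Pdha1, differed in the other direction. Probe set 1416090_at read 21728 and 22889 on the NTG arrays and 23030 and 29692 on the MCK-PPARa arrays. The groups did not overlap, with MCK-PPARa replicate 1 just above NTG replicate 2. The log2 change was 0.23 ± 0.30 (SE, limma adjusted p = 0.98), with a 95% interval from -0.47 to 0.93. The dimmer probe set, 1448214_at, read 1288 and 1415 on the NTG arrays and 1206 and 1837 on the MCK-PPARa arrays, where the groups overlapped, with a log2 change of 0.14 ± 0.36 (SE).

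Dlat, the subunit that passes the acetyl group to coenzyme A, had the lowest change of the members. Its brightest probe set, 1426265_x_at, read 9205 and 11884 on the NTG arrays and 7103 and 7518 on the MCK-PPARa arrays. Both MCK-PPARa arrays were below both NTG arrays. The log2 change was -0.51 ± 0.29 (SE, limma adjusted p = 0.96, unadjusted p = 0.12), -0.37 for replicate 1 and -0.66 for replicate 2. The suffix of this probe set means that some of its probes may also bind other transcripts.

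The other Dlat probe sets carry no such mark. On 1452005_at the signals were 6263 and 5312 on the NTG arrays and 4292 and 3526 on the MCK-PPARa arrays, again without overlap, with a log2 change of -0.56 ± 0.28 (SE, unadjusted p = 0.081 in the limma fit over all probe sets). On 1426264_at they were 5494 and 9016 on the NTG arrays and 5528 and 6745 on the MCK-PPARa arrays, with overlap and a log2 change of -0.20 ± 0.33 (SE). All 3 Dlat probe sets thus had a change below 0 and none passed.

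Dld, the dehydrogenase that this complex shares with the 2-oxoglutarate and branched-chain complexes and the glycine cleavage system, separated by replicate number rather than by genotype. Its only probe set, 1423159_at, read 1591 and 4197 on the NTG arrays and 1837 and 3327 on the MCK-PPARa arrays. In both groups the replicate 2 array was the higher one, by 1.36 on the log2 scale in NTG and by 0.83 in MCK-PPARa muscle. The log2 change between the groups was -0.06 ± 0.49 (SE, limma adjusted p = 1.00), 0.20 for replicate 1 and -0.33 for replicate 2.

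**Figure D2:**
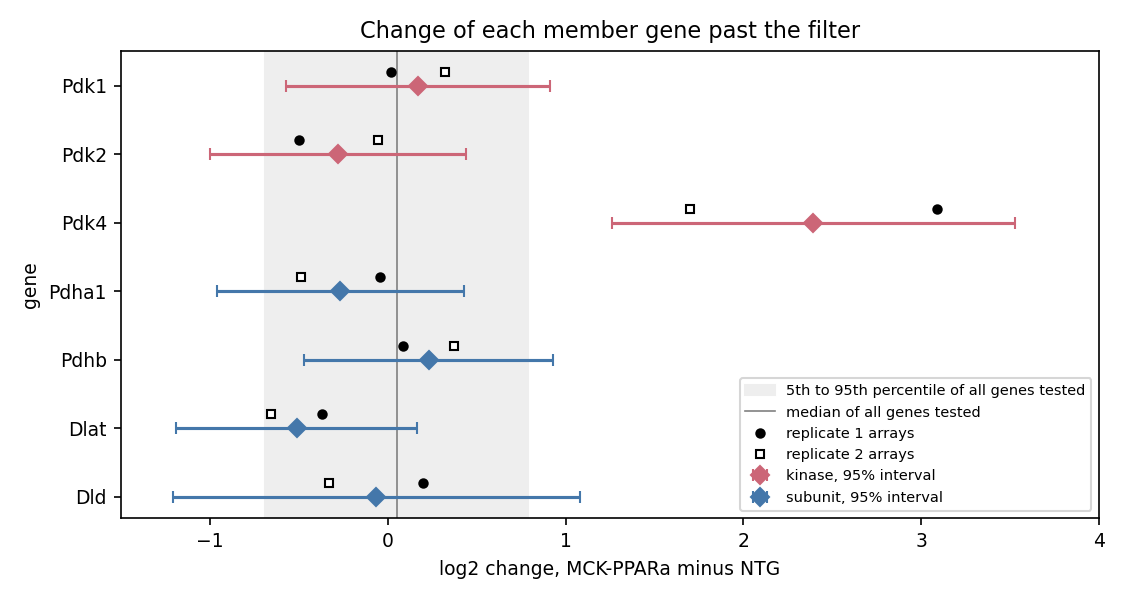
Log2 change (x axis, MCK-PPARa minus NTG) of the 7 member genes tested, with limma's 95% interval, kinases in red and subunits in blue, and the changes between arrays of the same replicate number as black circles and open squares. Only the interval of Pdk4, from 1.26 to 3.53, lies wholly above the grey band, which spans the 5th to 95th percentile of all genes tested (-0.69 to 0.79).

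Neither a kinase nor a subunit passed the test with all 4 arrays and without a block. None of the 7 genes tested passed, against 0.0595% of all genes (0.0476% higher and 0.0119% lower), and 1 had an unadjusted p under 0.05, against 5.85% of all genes. Of the 3 kinases tested, 2 had a change above 0 and 1 below, with a median of 0.17. Of the 4 subunits tested, 1 had a change above 0 and 3 below, with a median of -0.17. The median of all 8400 genes was 0.05, with 55.5% of them above 0 and 44.5% below.

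Groups without overlap were found for 5 of the 7 genes, 3 higher (Pdk1, Pdk4, Pdhb) and 2 lower (Pdha1, Dlat). Over all genes tested 34.2% had groups without overlap, 20.3% higher and 13.8% lower. Across the 13 probe sets, without a filter, none passed, 3 were higher without overlap, 4 were lower and 6 overlapped, and 1 of the 4 lower was the dim Pdk3 probe set. Of all probe sets 0.0309% passed, 33.6% had groups without overlap in either direction and 12.8% were lower without overlap. Of the 4 genes with more than 1 probe set, Pdha1, Pdhb and Pdk1 had 1 probe set without overlap and 1 with it, and Dlat had 2 without and 1 with.

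The median deviation of the 4 subunits from their NTG mean was -0.28 on the log2 scale in MCK-PPARa replicate 1 and -0.06 in MCK-PPARa replicate 2. In NTG the same median was -0.11 and 0.11, values that mirror each other because the deviations are taken from the mean of these arrays. They give no independent range against which to place the MCK-PPARa arrays. The change of Pdk4 exceeded that of each of the other 6 genes, by 2.17 against Pdhb, 2.23 against Pdk1, 2.46 against Dld, 2.66 against Pdha1, 2.67 against Pdk2 and 2.91 against Dlat on the log2 scale. That Pdk4 exceeded each follows from its having the largest change of the members, and all 6 differences share its values. The exact two-sided permutation test over the 4 arrays gave p = 0.33 for each of these 6 differences (0.33 after Benjamini-Hochberg adjustment). This is the smallest value that 2 arrays against 2 allow, so the test could not separate them.

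**Figure D3:**
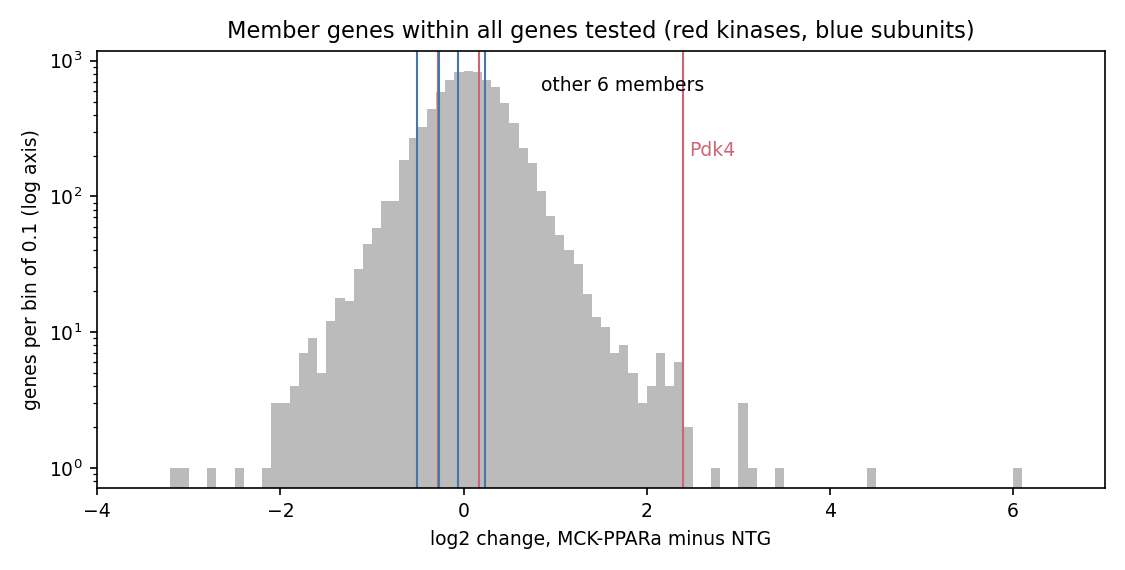
Number of genes (log axis) per bin of log2 change, MCK-PPARa minus NTG, for the 8400 genes tested, with red lines for kinases and blue lines for subunits. Pdk4, at 2.39, lies in the upper tail, and the other 6 members lie between -0.51 and 0.23, in the bulk of the distribution.

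Genes that feed pyruvate to the complex, lipoylate it or take pyruvate elsewhere were counted from a list of 16, of which 11 were tested. None passed in either direction, 7 changes were above 0 and 4 below, and the median was 0.04. Slc16a3, the lactate and pyruvate exporter of fast muscle, had the smallest p: it read 19142 and 19476 on the NTG arrays and 5631 and 6678 on the MCK-PPARa arrays. The groups lay far apart and each was tight, with a log2 change of -1.64 ± 0.29 (SE, limma adjusted p = 0.14). The changes of the next 4 by p were 0.46 for the lactate dehydrogenase Ldha, 0.34 for the mitochondrial pyruvate carrier subunit Mpc1, -0.45 for the pyruvate kinase Pkm and -0.24 for the monocarboxylate transporter Slc16a1, with limma adjusted p from 0.96 to 0.97. The lipoate synthase Lias, which makes the cofactor of Dlat, had a change of 0.03 ± 0.35 (SE).

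The dehydrogenase complexes built on the same plan, several of which use Dld, gave 7 tested genes of 11. None passed, 4 changes were above 0 and 3 below, with a median of 0.09. None of the 7 had groups without overlap, against 34.2% of all genes. The extremes were 0.66 ± 0.42 (SE) for Bckdha and -0.52 ± 0.40 (SE) for Bckdhb, the α and β subunits of the branched-chain complex. The smallest limma adjusted p in the list was 0.96. The branched-chain kinase Bckdk, the relative of the Pdk enzymes that acts on that complex, had a change of 0.09 ± 0.41 (SE).

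From a list of 10 possible regulators of Pdk4, 8 were tested. None passed, and Ppara itself was the only one with a change above 1. Foxo1, the forkhead factor that drives Pdk4 in fasting, read 2041 and 4058 on the NTG arrays and 3541 and 5291 on the MCK-PPARa arrays, with overlap and a log2 change of 0.58 ± 0.40 (SE, limma adjusted p = 0.96). In both groups the replicate 2 array was the higher one, as it was for Ppara and Pdk4. The change was -0.37 for the PPAR partner Rxra, -0.52 for Hif1a, 0.27 for the glucocorticoid receptor Nr3c1 and -0.04 for the coactivator Ppargc1a. Ppard and Pparg did not pass the filter.

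**Figure D4:**
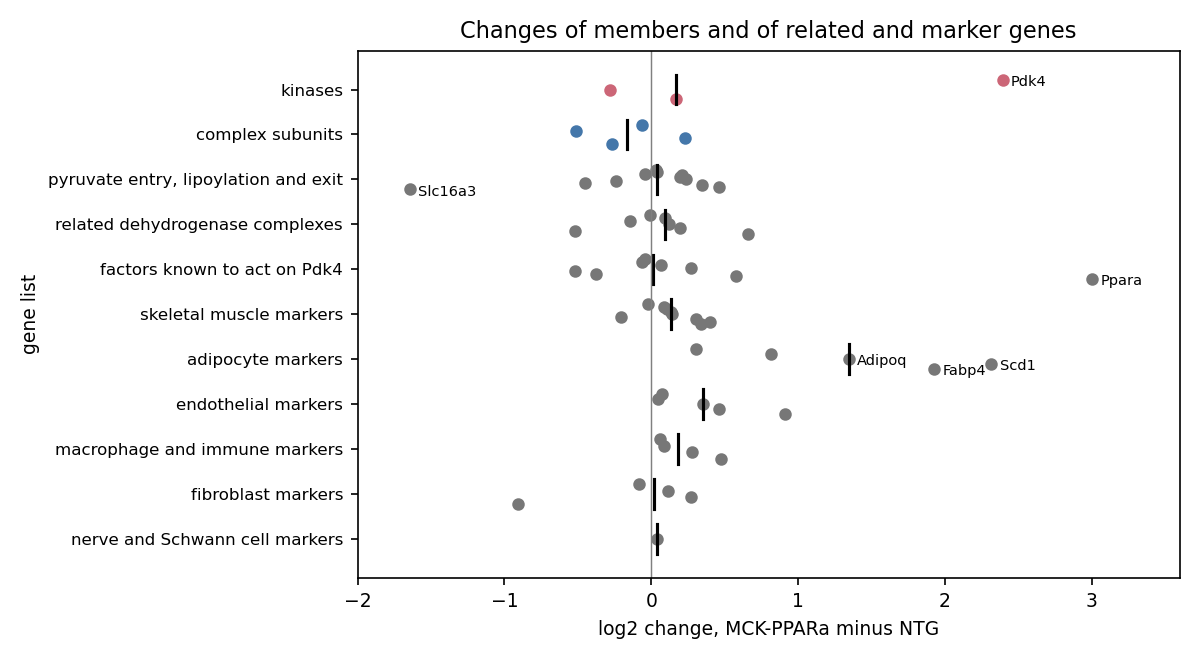
Log2 change (x axis, MCK-PPARa minus NTG) of each tested gene by list, with the list's median as a black bar, and names beside genes beyond 1.2 in either direction. Kinases and subunits lie near 0 except Pdk4 at 2.39, and the adipocyte markers lie above 0, with a median of 1.34.

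Adipocytes also express Pdk4, and their markers were higher in value in the MCK-PPARa samples. Of 9 markers 5 were tested and none passed. All 5 changes were above 0, against 55.5% of all genes, and the median was 1.34. Groups were higher without overlap for 4 of the 5, against 20.3% of all genes. The summed signal of the 5 markers was 12873 and 10541 on the NTG arrays and 62901 and 29214 on the MCK-PPARa arrays. Scd1 (2.32, limma unadjusted p = 0.0021) and Fabp4 (1.93, limma unadjusted p = 0.00097), which other cells use as well, had the largest changes. The defining marker Adipoq read 1072 and 1504 on the NTG arrays and 3477 and 3180 on the MCK-PPARa arrays (limma unadjusted p = 0.0028). Retn had a change of 0.81, also higher without overlap. Lipe had the smallest change of the 5, at 0.30 ± 0.37 (SE), with overlap. Below the filter, Lep read between 76.9 and 125 with a change of -0.006, and Cidec had a change of 0.53, both with overlap. None of the markers was listed at 0. Their part in the Pdk4 difference was not tested, and in whole muscle more cells of a type and more RNA per cell cannot be told apart. Of the other marker lists none had a member that passed. The 5 endothelial markers tested all had a change above 0, against 55.5% of all genes, with a median of 0.35. Of them 3 were higher without overlap, against 20.3% of all genes. Kdr had the largest change, at 0.91 ± 0.32 (SE, limma unadjusted p = 0.023), while Tie1 (0.05) and Vwf (0.07) overlapped. The 4 macrophage and immune markers had a median of 0.18. The 4 fibroblast markers had a median of 0.02, with Pdgfra lower without overlap, at -0.90 ± 0.37 (SE, limma unadjusted p = 0.043). Of the nerve markers only Mbp was tested, with a change of 0.04.

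The 6 genes whose log2 values, centred on their own mean, lay nearest to those of Pdk4 over the 4 arrays were Cpt2, the cell cycle inhibitor Cdkn1a, the acetylcholine receptor subunit Chrna1, Sirt4, the acylcarnitine carrier Slc25a20 and the cytokine gene Il1f10. Their Euclidean distances ran from 0.43 to 0.66 on the log2 scale, over 4 arrays that all the genes share. Cpt2, the inner-membrane carnitine palmitoyltransferase of fatty acid oxidation, was nearest, with 2275 and 5871 on the NTG arrays and 13199 and 19835 on the MCK-PPARa arrays. Its NTG replicate 2 lay above NTG replicate 1 and both MCK-PPARa arrays lay above both. This likeness to Pdk4 follows from the choice by distance and is no separate finding. Sirt4, a mitochondrial sirtuin, read 130 and 516 on the NTG arrays and 979 and 1742 on the MCK-PPARa arrays, a low level at which MAS5 signals are noisy. Il1f10 was also low in NTG, at 166 and 370, against 2006 and 1406 for MCK-PPARa replicates 1 and 2. The log2 changes of Sirt4 (2.03) and Il1f10 (2.47) were the lowest and the highest of the 6, and both genes had an NTG mean under the filter's level. None of the 6 passed, with limma adjusted p from 0.073 to 0.47.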

How the data were processed

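Total RNA from 4 gastrocnemius samples was hybridised to 1 Affymetrix mouse array each. The authors deposited linear signal intensity values for 22690 probe sets, made with MAS5 per the submitters' processing notes. Its version and settings, and the detection calls, were not given in the sources used here. In the deposited values the 2% trimmed means were nearly equal on the 4 arrays, so no further normalization was applied. Gene names came from the platform annotation: of 22626 probe sets other than the 64 controls, 20380 had 1 symbol, 691 several and 1555 none, and only the first kind was used by gene. Values were taken as log2(signal + 64.2), 64.2 being 10% of the median of all values. Genes were read by their brightest probe set, after removal of probe sets with a mean log2 level under the 40th percentile, which left 8400 genes. The groups were compared in limma 3.58.1 (R 4.3.3), two-sided and without covariates, using lmFit and a trended eBayes (7.86 degrees of freedom), and again over all probe sets without a filter. The number of arrays limits the precision.

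The members and gene lists were chosen with earlier results of these data known. Named were all members with all their probe sets, Ppara, up to 5 genes of each related list by smallest p and the 6 genes nearest to Pdk4. Lias, Bckdk, Ppargc1a and single markers were named outside that rule, after their values were seen. Promoter sequences are RefSeq's (GRCm38.p6), matched by symbol for 9 of the 10 genes. Alternatives varied the offset, normalization, filter, probe set, variance trend, replicate block and arrays.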

Additional observations from a re-analysis of the deposited data

How the results depend on the processing

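The change of Pdk4 stayed above 0 in all 13 alternatives. It lay between 2.29 and 2.40 on the log2 scale with all arrays, and between 1.61 and 3.18 with 1 array left out. Both groups have replicates 1 and 2, with no word in the labels on what ties arrays of one number. Same-numbered arrays deviated together from their groups' means (r = 0.46, taken across genes, which are no independent replicates). With the replicate number as a block, Pdk4 passed (2.39, limma adjusted p = 0.0043) and was the 1 member that did, while 196 of all genes passed, and 255 of all probe sets without a filter. Members past the threshold numbered 0 to 1 with 1 array left out, and 0 in the alternatives other than these and the block. Against 5 genes in the report, 3 passed with median centring, 2 with the filter at the 60th percentile, 12 with the mean of a gene's probe sets, and 68 to 150 with 1 array left out. Over all probe sets without a filter 7 passed, against 3 with an offset of 50% of the median, 2 with quantile normalization, 1 with median centring, 0 without a variance trend and 0 to 108 with 1 array left out. Dld changed sign with 1 array left out, from -0.75 to 0.62, being 0.62 without NTG replicate 2 and 0.35 without MCK-PPARa replicate 1. The other 5 members kept their sign in all 13 alternatives and did not pass in any that kept all arrays. The cause of these differences was not tested. The low signal of Pdk3 limits what can be said of it.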
